A study of Solanum lycopersicum with 3 samples.

Results

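loxC and AAT encode enzymes of tomato fruit aroma. Every probe set whose platform or current gene symbol is loxC or AAT was taken, which gave 1 probe set for each gene, or 2 of the 10038 non-control probe sets of the array. The rule used no measured value, but the members and the gene lists below were chosen with earlier results of these data known. Both probe sets were bright enough to enter every comparison. All RNA came from fruit pericarp of the Ailsa Craig cultivar of Solanum lycopersicum, grown in a glasshouse and given no treatment that the labels name, and each preparation used about 10 to 12 g of tissue. The 3 preparations were read on 1 array each. The pellet preparation is RNA from the cell debris spun out at 10000 x g for 15 min from an Ex2 homogenate and extracted again by the Ex2 method. The Ex2 preparation is RNA from the supernatant of such a spin, made with 2 ml per g of a salt, sucrose and magnesium buffer. Detergent and phenol were added only after the spin. The Ex1 preparation is RNA from tissue taken up in 1 ml per g of a phenol-containing buffer and mixed at once with phenol and chloroform, with no separate removal of debris. The labels give neither the ripeness of the fruit nor whether the preparations came from the same fruit.

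Lipoxygenases add oxygen to the unsaturated fatty acids of membrane lipids. In tomato, loxC is a lipoxygenase of the plastid whose hydroperoxide products are cut by hydroperoxide lyase into the short aldehydes that give fruit its green notes. Alcohol dehydrogenase turns such aldehydes into alcohols, and AAT, an alcohol acyltransferase also called AAT1 or TomAAT, joins alcohols to acetyl groups to make volatile esters. The lipase and desaturase steps supply the fatty acids, and a separate branch from plastid lipoxygenases leads through allene oxide synthase and cyclase to the hormone jasmonate. Whether the high-salt method recovers mRNAs of secreted and endomembrane proteins is the question in the study's title, and an extraction comparison thus asks in which preparation an mRNA was more or less abundant relative to the other mRNAs of that preparation.

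No spread between samples is known, since each preparation had 1 array. Differences below are therefore those of array pairs, carry no test, and are limited in precision by the number of arrays. Values are the deposited probe set intensities on a linear scale, and differences are on log2(intensity + 1). A feature was compared where the brighter of its 2 values reached an intensity of 175, the median of all non-control values, and differences of at least 2-fold were counted. The arrays had near-equal medians, from 170.0 to 179, but differed in controls. The hybridisation spikes, bacterial RNAs added to each sample before hybridisation, differed by 1.22 on the log2 scale (median of 21 probe sets) between Ex2 and Ex1 and by -0.65 between the pellet and Ex2. The actin signal ratio between the 3′ and 5′ ends of the mRNA was 1.35 in the pellet, 1.71 in Ex2 and 1.2 in Ex1. For the control ef1a, taken with a single 5′ probe set of several, it was 2.81, 3.27 and 2.62 in that order. The part of these control differences in the results was not tested.

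The tissue label was checked against marker genes. All 6 ripening fruit genes that matched a probe set (EXP1, Psy1, E8, PG2, 2A11 and RIN) were bright on every array, between 2321 and 16308. Their summed intensity was 61127 in the pellet, 68570 in Ex2 and 60225 in Ex1. Sums here add probe sets whose heights are not comparable, and they hide differences between genes. Ex2 was the highest array for EXP1 (2796 in the pellet, 6811 in Ex2 and 2321 in Ex1), PG2 and 2A11. Psy1, E8 and RIN were highest in Ex1. The seed marker MAN2 was dim on every array, at most 14.0. The epidermal lipid transfer genes LE16 and TSW12, the 2 genes matched from a list of 4 symbols, summed to 2073 in the pellet, 1928 in Ex2 and 695 in Ex1. Both were lowest in Ex1, but LE16 was higher in the pellet than in Ex2 (1014 and 688) and TSW12 lower (1059 and 1240). The green tissue genes CAB4 and psaD (now LOC543978), the 2 matched from 6 symbols, summed to 1356 in the pellet, 568 in Ex2 and 1041 in Ex1. The vascular marker sus3, the 1 matched from 3 symbols, read 1465 in the pellet, 2950 in Ex2 and 2088 in Ex1. These marker values moved with the preparations beside the members' values below, and their part in them was not tested. In bulk RNA, fewer cells of a type and less RNA per cell cannot be told apart.

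loxC was highest in Ex2 and lowest in the pellet. Its intensity was 889 in the pellet, 4310 in Ex2 and 1847 in Ex1. The Ex2 array therefore stood above the other two and Ex1 lay between. The difference was 1.22 for Ex2 minus Ex1 (2.33-fold), -2.28 for the pellet minus Ex2 (4.84-fold), and -1.05 for the pellet minus Ex1 (2.08-fold). These 3 differences rest on the same 3 arrays, and any pair of them fixes the other one.

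AAT differed little between the arrays on the deposited scale. Its intensity was 7818 in the pellet, 8994 in Ex2 and 7818 in Ex1, the values of the pellet and Ex1 being identical in the deposited table. Ex2 was the highest array for AAT as for loxC. The AAT difference was 0.20 for Ex2 minus Ex1 (1.15-fold), -0.20 for the pellet minus Ex2 (1.15-fold lower in the pellet), and 0 for the pellet minus Ex1. The exact tie was not particular to AAT: of all 10038 probe sets, 767 tied between the pellet and Ex1 alone. Values also recurred between different probe sets, since the 30114 non-control values held 17330 distinct numbers.

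**Figure D1:**
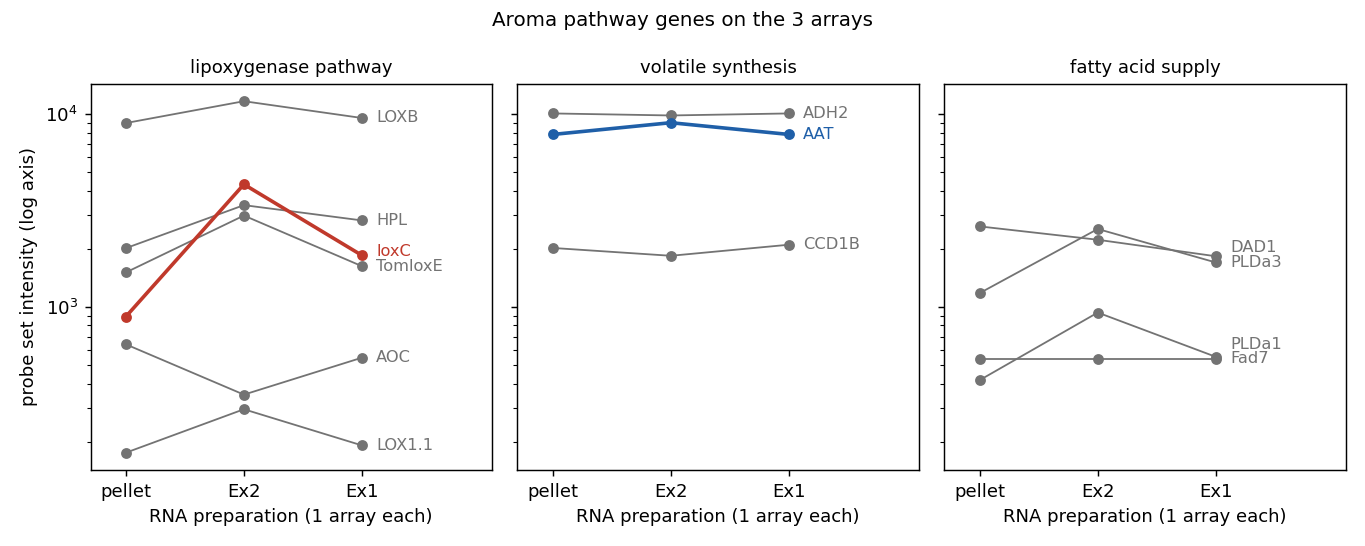
Probe set intensity (log axis) on the pellet, Ex2 and Ex1 arrays, 1 array each, for the bright genes of the lipoxygenase pathway, volatile synthesis and fatty acid supply lists; each line is 1 gene. loxC (red) peaked at 4310 in Ex2 and was lowest in the pellet at 889, while AAT (blue) stayed between 7818 and 8994; heights of different probe sets are not comparable with each other.

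How common such differences were among all features gives the background. Between Ex2 and Ex1, 17.3% of 5568 probe sets were 2-fold or more higher in Ex2 and 10.1% lower by that much. loxC passed that limit and AAT did not, and 888 of the 5568 had a larger difference than loxC. Between the pellet and Ex2, 19.8% of 5538 probe sets were at least 2-fold lower in the pellet and 17% at least 2-fold higher. Here loxC lay near the end of the distribution, with 129 of the 5538 lower than it. Between the pellet and Ex1, 4.78% of 5297 probe sets were at least 2-fold lower in the pellet and 3.78% at least 2-fold higher, and 220 were lower than loxC.

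Among named genes the loxC difference was exceeded by 92 of 495 for Ex2 minus Ex1, where 20.2% reached 2-fold in the direction of Ex2 and 4.65% in that of Ex1. In the contrast of pellet and Ex2, 12 of 499 named genes lay below loxC, with 21.4% reaching 2-fold below and 9.22% reaching it above. In that of pellet and Ex1, 10 of 471 lay below loxC, with 2.55% reaching 2-fold below and 5.1% above. AAT lay nearer the middle of each distribution. Of the named genes, 173 of 495 had a higher difference than AAT for Ex2 minus Ex1, 275 of 499 for the pellet minus Ex2 and 226 of 471 for the pellet minus Ex1.

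The same shares were counted at the brightness of each member. AAT was outshone by 68 of the 10038 probe sets in the pellet, 46 in Ex2 and 68 in Ex1. Of the 274 probe sets whose mean log2 value lay within 2-fold of that of AAT, 7.3% were higher in Ex2 than in Ex1 by 2-fold or more and 2.19% lower. Of the 1479 probe sets within 2-fold of loxC in brightness, 13.6% were higher and 11.7% lower. Between the pellet and Ex2, the shares lower and higher in the pellet were 5.11% and 9.85% near AAT and 14.1% and 20.1% near loxC. Between the pellet and Ex1, they were 2.19% and 0.365% near AAT and 2.16% and 3.65% near loxC. Whether brightness limits the difference that AAT can show was not tested.

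The members were set against each other through their differences, which a constant shift of an array cannot move. The loxC difference minus that of AAT was 1.02 for Ex2 minus Ex1, -2.07 for the pellet minus Ex2 and -1.05 for the pellet minus Ex1. The ratio of loxC to AAT signal was thus 2.03-fold higher in Ex2 than in Ex1 and, in the pellet, 4.21-fold lower than in Ex2. Where 1 gene had several bright probe sets, the median gap between their differences was 0.22 in the contrast of Ex2 and Ex1 (26 genes), 0.38 in that of pellet and Ex2 (24 genes) and 0.18 in that of pellet and Ex1 (25 genes). The differences between loxC and AAT were larger than these gaps, which are measured within arrays and not between samples.

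The direction given to each member depends in part on how the arrays are scaled. Scaled on the spikes, which shifted the median of all probe sets by -1.19 for Ex2 minus Ex1, loxC differed by 0.03 and AAT by -0.99. With RPL3 and RPL8, genes of ribosomal proteins, as the scale, which shifted it by 0.55, loxC differed by 1.77 and AAT by 0.75. Against Ex2, loxC stayed lower in the pellet under every scaling run, from -2.71 to -1.73, while AAT turned to 0.35 with the spikes. The median of all probe sets moved there by 0.55 with the spikes and -0.44 with the ribosomal proteins. In the pellet minus Ex1, loxC ranged from -1.70 to -0.94, so that its passing of 2-fold there was lost with ribosomal scaling and with centring of the array medians (-0.98), while the median of all probe sets moved by -0.64 with the spikes and 0.11 with the ribosomal proteins.

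Scaling also set the split of all calls. For Ex2 minus Ex1, 964 probe sets were at least 2-fold higher and 560 lower as deposited, 438 and 3993 with the spikes, and 1252 and 28 with the ribosomal proteins. The split was 943 higher to 1095 lower for the pellet minus Ex2 as deposited, 1994 to 567 with the spikes and 381 to 1548 with the ribosomal proteins. For the pellet minus Ex1 it was 200 to 253 as deposited, 36 to 1121 with the spikes and 265 to 195 with the ribosomal proteins.

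**Figure D2:**
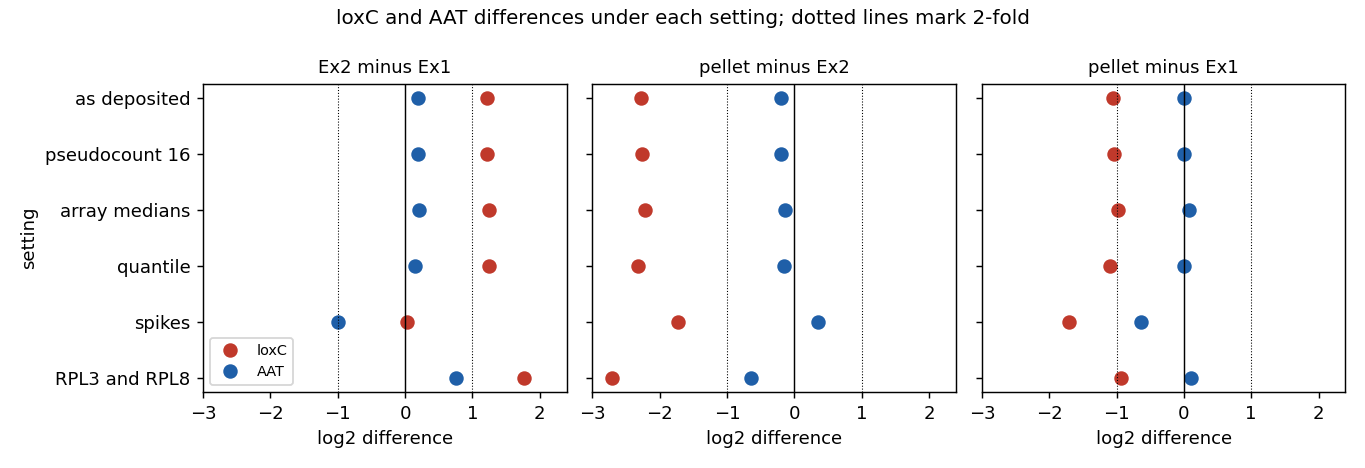
log2 difference (x axis) of loxC (red) and AAT (blue) in each contrast under 6 settings (rows), with dotted lines at 2-fold; each point is a difference between 2 single arrays. The gap between the members is near 1.02, -2.07 and -1.05 in the 3 panels in every row, while both move together with the spikes and the ribosomal proteins.

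The other bright lipoxygenase genes shared the loxC order of Ex2 above Ex1 above the pellet on the deposited scale, with smaller differences, and with the spikes their Ex2 minus Ex1 values turned below 0 and the pellet minus Ex2 value of LOXB turned to 0.17. LOXB, also called tomloxB, read 8957 in the pellet, 11624 in Ex2 and 9514 in Ex1, a difference of 0.29 for Ex2 minus Ex1 and -0.38 for the pellet minus Ex2. TomloxE read 1506 in the pellet, 2969 in Ex2 and 1623 in Ex1, or 0.87 and -0.98. LOX1.1, the tomloxA gene, read 175 in the pellet, 294 in Ex2 and 191 in Ex1, or 0.62 and -0.74. For the pellet minus Ex1 these 3 genes lay between -0.12 and -0.09, against -1.05 for loxC. loxD, a plastid lipoxygenase known for jasmonate made after wounding, was dim on every array, at 53.2 in the pellet, 98.2 in Ex2 and 74.8 in Ex1.

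The difference of loxC minus that of each bright relative shows how far it stood from its family. For Ex2 minus Ex1 this was 0.35 against TomloxE, 0.60 against LOX1.1 and 0.93 against LOXB. In the pellet minus Ex2 it was -1.30 against TomloxE, -1.53 against LOX1.1 and -1.90 against LOXB. In the RefSeq table of assembly SLM_r2.1, loxC and the lipoxygenase gene loxF lie on 1 chromosome with 1 gene between, and TomloxE and LOXB lie near each other with 3 genes between. loxF matched no named probe set. Probe sequences were not used here, so signal that loxC and its relatives might share was not examined.

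Of the enzymes downstream of lipoxygenases, HPL and AOC were bright, and neither was 2-fold apart in any contrast as deposited. HPL, the hydroperoxide lyase that cuts lipoxygenase products into aldehydes, read 2013 in the pellet, 3363 in Ex2 and 2802 in Ex1. It kept the order of loxC on the deposited scale (-0.93 for Ex2 minus Ex1 with the spikes), with a difference of 0.26 for Ex2 minus Ex1, -0.74 for the pellet minus Ex2 and -0.48 for the pellet minus Ex1. AOC, the allene oxide cyclase of jasmonate synthesis, ran the other way from loxC, at 638 in the pellet, 350.3 in Ex2 and 544 in Ex1. Its difference was -0.63 for Ex2 minus Ex1 and 0.86 for the pellet minus Ex2, and the loxC differences minus these were 1.86 and -3.14. The allene oxide synthase gene AOS, the divinyl ether synthase gene DES and the reductase genes OPR1, opr2 and OPR3 were dim on all arrays, between 11.6 and 129.

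Of the 12 lipoxygenase pathway genes with a named probe set, 6 were bright. As deposited loxC was the 1 member at least 2-fold apart in any contrast. The shares of all probe sets were 17.3% for Ex2 above Ex1, 19.8% for the pellet below Ex2 and 4.78% for the pellet below Ex1. Of named genes they were 20.2%, 21.4% and 2.55%. With RPL3 and RPL8 as the scale, 3 members passed 2-fold above Ex1 in Ex2, as did 1252 of 5568 probe sets. In the pellet 4 passed it below Ex2, as did 1548 of 5538 probe sets, and loxC was among both groups. With the spikes loxC passed it below Ex2 in the pellet and AOC above, as did 567 and 1994 of the 5538. The list's median was 0.45 for Ex2 minus Ex1 (0.29 without loxC, and -0.74 with the spikes). The median was -0.25 over all probe sets and -0.03 over named genes. For the pellet minus Ex2 the list's median was -0.74, with or without loxC, and -0.19 with the spikes or -1.18 with RPL3 and RPL8. There it was 0.07 over all probe sets and -0.07 over named genes. For the pellet minus Ex1 the list's median was -0.12, or -0.11 without loxC, against 0 over all probe sets and over named genes.

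The bright genes that act beside AAT in volatile synthesis differed little between arrays on the deposited scale. ADH2, the fruit alcohol dehydrogenase, read 10045 in the pellet, 9805 in Ex2 and 10045 in Ex1, again an exact tie between the pellet and Ex1. CCD1B, a carotenoid cleavage dioxygenase that makes apocarotenoid volatiles, read 2017 in the pellet, 1837 in Ex2 and 2096 in Ex1. Its difference was -0.19 for Ex2 minus Ex1, opposite in sign to the 0.20 of AAT. CCD1A, the sesquiterpene synthase gene SSTLE1 and the terpene synthase gene MTS1 were dim and listed with the same value on all 3 arrays. Of this list's 6 genes 3 were bright, and 0 were at least 2-fold apart in any contrast as deposited, where the shares of all probe sets were 17.3% and 10.1%, 17% and 19.8%, and 3.78% and 4.78% (above and below, in the order of contrasts that follows). The list's medians were -0.03 for Ex2 minus Ex1, 0.03 for the pellet minus Ex2 and 0 for the pellet minus Ex1. With the spikes they were -1.23, 0.58 and -0.64. ADH2 and CCD1B then passed 2-fold below Ex1 in Ex2, as did 3993 of all 5568 probe sets. With RPL3 and RPL8 the list's medians were 0.51, -0.40 and 0.11.

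On the fatty acid supply list, which they entered by symbol, the bright phospholipase D genes followed the loxC order as deposited. Whether they supply fatty acids to loxC was not tested. Phospholipase D cleaves membrane phospholipids. PLDa1 read 417 in the pellet, 933 in Ex2 and 550.2 in Ex1, a difference of 0.76 for Ex2 minus Ex1 and -1.16 for the pellet minus Ex2. PLDa3 read 1178 in the pellet, 2530 in Ex2 and 1696 in Ex1, or 0.58 and -1.10. Both Ex2 minus Ex1 values were smaller than the shift of -1.19 brought by the spikes. Against Ex2, these were the 2 members of the fatty acid supply list lower in the pellet by 2-fold or more, of 4 bright among 7 with a probe set, where 19.8% of all probe sets were. With the spikes 0 of the 4 were, against 567 of 5538 probe sets.

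The plastid desaturase gene Fad7 was listed at 538 on all 3 arrays. DAD1 had its highest value in the pellet, at 2608, against 2224 in Ex2 and 1827 in Ex1. It entered the list by symbol, and its older name dad-1 is that of a cell death defender protein and not of the lipase. PLDa2, PLDb1 and PLDb2 were dim, between 18.4 and 56.5. The list's median, DAD1 included, was 0.43 for Ex2 minus Ex1 (-0.76 with the spikes) and -0.20 for the pellet minus Ex1. For the pellet minus Ex2 it was -0.55 (0 with the spikes, -0.99 with RPL3 and RPL8). The other bright genes, PLDa1, PLDa3 and Fad7, lay there at -1.16, -1.10 and 0 as deposited.

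Because loxC works in the plastid, it was set beside other nuclear genes for plastid proteins. Of 13 isoprenoid and carotenoid genes with a probe set, 10 were bright. For Ex2 minus Ex1, 7 of them lay above 0 and 3 below (Psy1, CrtR-b1 and ISPE). Their median was 0.33 (-0.87 with the spikes) against -0.25 over all probe sets and -0.03 over named genes. In the pellet minus Ex2, 9 lay below 0 and 1 at 0. Their median was -0.89 (-0.35 with the spikes) against 0.07 over all probe sets and -0.07 over named genes. In the pellet minus Ex1 all 10 lay below 0 as deposited, with a median of -0.40 against 0 over both. CrtR-b1 was nearly tied there, at 1068 in the pellet and 1070 in Ex1. On the deposited scale 0 of the 10 were 2-fold apart between Ex2 and Ex1, with ZEP, the zeaxanthin epoxidase gene, highest at 0.68 and ISPE, of the plastid isoprenoid route, lowest at -0.05. Against Ex2, 5 of the 10 were lower in the pellet by 2-fold or more, where 19.8% of all probe sets and 21.4% of named genes were. With the spikes 0 of the 10 were, against 567 of 5538 probe sets. DXS, the entry enzyme of plastid isoprenoid synthesis, came nearest to loxC, at 1895 in the pellet, 5287 in Ex2 and 3340 in Ex1. The loxC difference minus that of DXS was still -0.80 for the pellet minus Ex2 and 0.56 for Ex2 minus Ex1.

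Photosynthesis proteins of the plastid had differences of the opposite sign to loxC for Ex2 minus Ex1 and the pellet minus Ex2 as deposited. Of 8 genes with a probe set 6 were bright, and all 6 were below 0 for Ex2 minus Ex1. Their median was -0.55 (-0.01 with RPL3 and RPL8), against -0.25 over all probe sets and -0.03 over named genes. PSBO (-0.11) and PSBP (-0.17) lay above the median of all probe sets. For the pellet minus Ex2 all 6 were above 0. Their median was 1.03 (0.59 with RPL3 and RPL8), against 0.07 over all probe sets and -0.07 over named genes. Of these, 3 passed 2-fold there, where 17% of all probe sets and 9.22% of named genes were that much higher. With RPL3 and RPL8, 1 of the 6 passed it, as did 381 of 5538 probe sets. PsbQ of photosystem II was highest for the pellet minus Ex2 as deposited, at 1.86, with 1265 in the pellet and 347 in Ex2. psaD was lowest for Ex2 minus Ex1 at -1.10. The loxC difference minus that of PsbQ was -4.14 between the pellet and Ex2.

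The enzymes on the list for the cytosol had medians closer to the AAT values than to those of loxC. So did all probe sets and all named genes. Over all probe sets the medians were -0.25 for Ex2 minus Ex1, 0.07 for the pellet minus Ex2 and 0 for the pellet minus Ex1. Over named genes they were -0.03, -0.07 and 0. The 11 bright genes for Ex2 minus Ex1, of 14 with a probe set, had a median of -0.12 (0.43 with RPL3 and RPL8), with the sucrose phosphate synthase gene SPS highest at 0.56 and the arginine decarboxylase gene ADC lowest at -0.84. In the pellet minus Ex2 their median was -0.25 (0.29 with the spikes), with the S-adenosylmethionine synthase gene SAM3 highest at 0.80 and SPS lowest at -1.36. In the pellet minus Ex1 it was -0.34 over 10 genes, with ADC at -1.39 below the loxC value of -1.05.

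**Figure D3:**
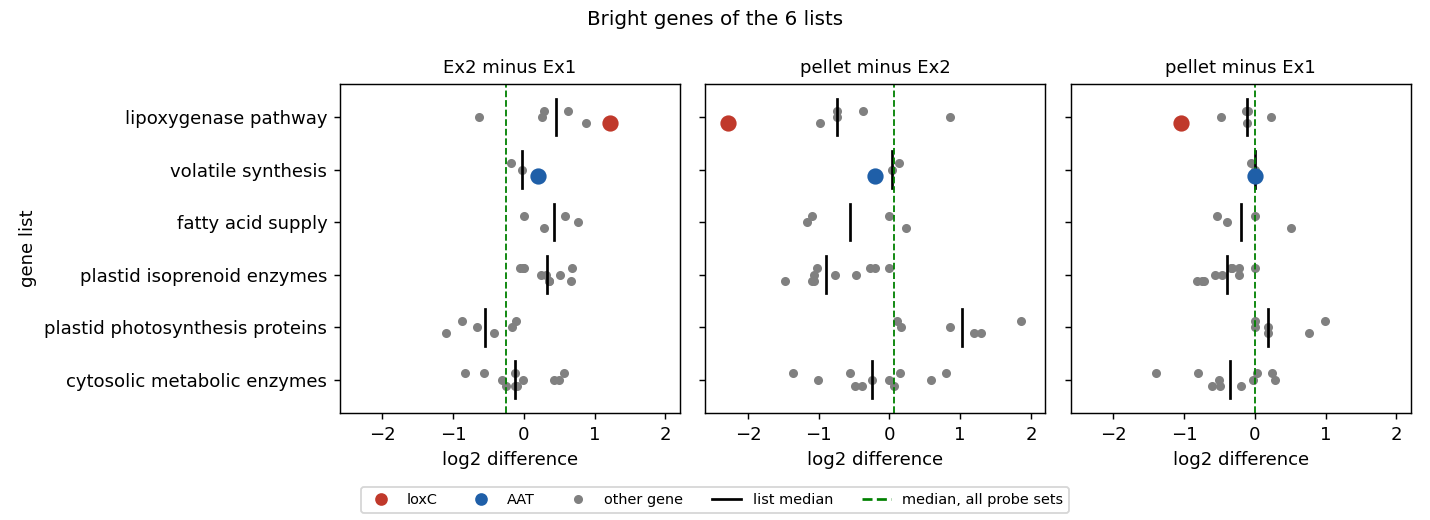
log2 difference (x axis) of every bright gene of 6 lists (rows) in each contrast, with loxC in red, AAT in blue, the list median as a black bar and the median of all probe sets as a green dashed line. For the pellet minus Ex2 loxC, at -2.28, is left of every other gene drawn, while AAT lies at -0.20.

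Likeness to each member was measured as the distance in the differences Ex2 minus Ex1 and pellet minus Ex2, over 3 arrays and 501 other named genes bright on some array. loxC had few near neighbours. No gene lay within 0.25 of it and 2 lay within 0.5, whereas 42 genes lay within 0.25 of AAT and 137 within 0.5. These counts restate the place of each gene and are not a separate trait. AAT lay nearer the middle of each distribution, and loxC near the end for the pellet minus Ex2. The gene nearest to loxC was the ethylene receptor gene ETR3 (now LOC544279), at a distance of 0.255. It read 2153 in the pellet, 8857 in Ex2 and 4058 in Ex1. The receptor gene ETR4 followed at 0.50, with 2152 in the pellet, 7508 in Ex2 and 3583 in Ex1. STV3 was at 0.55, the receptor gene ETR2 at 0.66, LOC606305 at 0.70 and DEM2 at 0.70. In these other 4 genes the pellet lay closer to Ex1, at -0.37 to -0.06, than in loxC.

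The 6 genes nearest to AAT were LOC544237 at a distance of 0.014, BMY3 at 0.047, LOC544143 at 0.050, ChrC at 0.11, PG2 at 0.12 and XYL1 at 0.12. PG2, the fruit polygalacturonase, read 14827 in the pellet, 16220 in Ex2 and 13236 in Ex1. On the deposited scale all 6 had their highest value in Ex2, by 0.16 to 0.29 over Ex1. Their choice by nearness to AAT in these differences fixed that order in advance.

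The order Ex2 above Ex1 above the pellet was held by 877 of 5671 probe sets and 94 of 502 named genes bright on some array. Of 100 named genes at least 2-fold higher in Ex2 than in Ex1, the pellet lay above Ex1 in 90 and below it in 10. Of the 965 probe sets that much higher in Ex2, it lay above Ex1 in 804 and below in 159. Both comparisons contain the Ex1 array and are not independent. loxC was the 1 named gene at least 2-fold higher in Ex2 than in Ex1 and also at least 2-fold lower in the pellet than in Ex1, a combination that was looked for after the values were seen. Over all probe sets 14 of 5671, or 0.25%, met it. With limits of 1.5-fold, 5 named genes met it, loxC with DXS, ETR3, ETR4 and FLACCA. loxC lay just past the 2-fold limit, and 0 named genes met it with arrays centred on their medians, scaled on the spikes or scaled on RPL3 and RPL8.

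**Figure D4:**
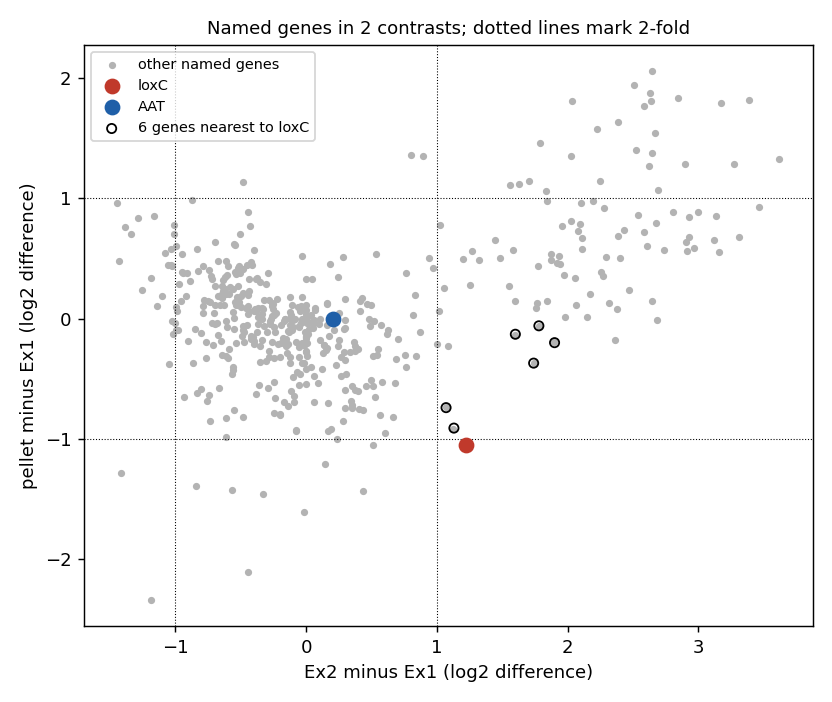
Ex2 minus Ex1 (x axis) against the pellet minus Ex1 (y axis), both as log2 differences, for the 502 named genes bright on some array, with dotted lines at 2-fold. Both axes contain the Ex1 array, so the axes are not independent; loxC (red) lies alone past both limits at lower right, at 1.22 and -1.05, and AAT (blue) lies at 0.20 and 0.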

How the data were processed

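Total RNA of 3 pericarp preparations was read on the Affymetrix tomato GeneChip. The table the authors deposited holds 1 intensity per probe set and array, linear by its range. Per the submitters' processing notes, GCOS 5.0 and RMA were used, and no order or parameters are given for either. It held 10209 probe sets, 171 of them controls, and 0 columns of other samples. Gene names came from the platform annotation, updated by Entrez gene ID with the RefSeq table of assembly SLM_r2.1: 909 probe sets had 1 name, 0 several and 9129 none, and 885 of the named ones had a gene ID in that table. A gene with several probe sets entered through the one with the highest mean.

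From these, log2(intensity + 1) differences were computed with pandas 2.3.3 and NumPy 2.4.6 under Python 3.11.15, and plots were drawn with matplotlib 3.10.9. With 1 array per group no p-value or standard error exists. The members, gene lists and named-gene rule (both members, all genes of the 3 aroma lists, the extremes of the other lists, the 6 nearest genes by pattern) were chosen with earlier results of these data known. The code was tested on simulated data. The alternatives were other scalings, filters, fold limits and a pseudocount of 16. No sequences were used here, and positions in the RefSeq table served only to tell which genes neighbour each other.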

Additional observations from a re-analysis of the deposited data

How the results depend on the processing

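No paired analysis was possible because each group has 1 array, and leaving out a replicate is likewise not possible. The mean over probe sets was not run, since each member has 1. A value was taken as unmoved if it changed by less than the median gap between probe sets of 1 gene, and a count or share if it changed by at most 1.5 times. The differences of loxC minus AAT were unmoved, from 1.01 to 1.08 for Ex2 minus Ex1, -2.18 to -2.05 for the pellet minus Ex2 and -1.10 to -1.04 for the pellet minus Ex1. Pseudocount, centring and quantile normalization moved neither member. With the spikes loxC was 0.03, -1.73 and -1.70 and AAT -0.99, 0.35 and -0.64 in the same order of contrasts. With RPL3 and RPL8 the first 2 were 1.77 and -2.71 for loxC and 0.75 and -0.64 for AAT.

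The share of probe sets past 2-fold was 27.4% for Ex2 minus Ex1, 14.0% past 3-fold, 51.6% past 1.5-fold and 79.6% with the spikes. For the pellet minus Ex2 it was 36.8%, with 14.3% past 3-fold, 58.5% past 1.5-fold and 23.9% with no filter. For the pellet minus Ex1 it was 8.55%, with 1.91%, 24.8% and, with the spikes, 21.8%. List medians relative to the median of all probe sets cannot move with a constant shift. With no filter, which adds dim genes, they moved for the lipoxygenase pathway (0.20 in place of 0.71 for Ex2 minus Ex1, -0.23 in place of -0.81 for the pellet minus Ex2), fatty acid supply (0.40 in place of 0.68 for Ex2 minus Ex1), isoprenoid enzymes (0.27 in place of 0.58 and -0.47 in place of -0.96) and cytosolic enzymes (-0.08 in place of 0.14 for Ex2 minus Ex1, -0.11 in place of -0.34 for the pellet minus Ex1). The number of named genes past both 2-fold limits, 1 as deposited, was 5 at 1.5-fold and 0 with centring, with the spikes and with RPL3 and RPL8, an alternative chosen after seeing the data. Other causes were not tested. Dim probe sets and the single array per preparation limit what these data can show.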
